A study of Homo sapiens with 6 samples.

Results

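Interferon-stimulated genes are the genes that a cell transcribes when it senses an interferon. A list of 46 of them was read out of the deposited count table by gene symbol, with the RNA sensor RIG-I under its older symbol DDX58. All 46 were found among the 58735 genes of the table, and all 46 passed the filter on low counts that left 17743 genes to test. The cells were Het1A, a human oesophageal epithelial line immortalised with the SV40 T antigen, and every library came from that line. Cells of the bile acid group (3 libraries) were placed for 10 min on each of 5 days in acidified keratinocyte medium of pH 4.0 that held deoxycholic acid, glycodeoxycholic and glycochenodeoxycholic acids, taurocholic acid and glycocholic acid, 100 µM of the mixture. Cells of the control group (3 libraries) received the vehicle, 0.1% DMSO. Both groups were held in medium with 1% serum from 48 h before the first exposure, and RNA was taken 24 h after the last. Acidification is described for the bile acid medium only and DMSO for the control only, so acid, bile acids and any difference in DMSO cannot be told apart. The labels number the libraries as biological replicates without saying how the cultures were kept separate, so a p-value here measures the spread between these libraries.

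Interferons bind receptors at the cell surface, whose JAK kinases phosphorylate transcription factors, STAT2 among them. A complex that holds STAT2 and IRF9 binds the interferon-stimulated response element in promoters, and interferon gamma acts through the gamma-activated site. The induced proteins block viral entry, sense or degrade viral RNA, shut down translation and tag proteins with ISG15, and epithelial cells keep many of them at a low level without infection.

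Total counts ran from 21.01 to 28.5 M per library. Levels are given as CPM, which are counts scaled to a common library total with TMM factors. A floor of 3 counts, which covers counting error only, corresponds to between 0.105 and 0.143 CPM. Bile acid library 1 had 27.79 M counts, between the other bile acid libraries, and a scaling factor of 1.01 as they had. Control library 2 stood apart, with 19101 genes detected against 24174 to 25337 in the others and a scaling factor of 0.851 against 1.01 to 1.07. Keratin genes of simple epithelium (KRT8, KRT18, KRT19 and KRT7) summed to 2364 CPM in control 2 and to 906 to 1468 CPM in the other libraries. Of the defining genes of squamous oesophageal epithelium, KRT13 had no count in any library and KRT5, KRT6A, KRT14, KRT15, TP63 and DSG3 had 0 to 22 counts per library. The more general epithelial genes of the same list of 10 were present, with 116 to 589 counts for CDH1, 1089 to 1937 for EPCAM and 512 to 1346 for SFN. The list summed to 157.7 CPM in control 2 and to 85.05 to 131.9 CPM in the other libraries. A list of 8 fibroblast markers summed to 165.1 to 321.5 CPM. That sum came mainly from COL1A1 (42.73 to 231 CPM) and THY1 (73.79 to 178.7 CPM), with PDGFRB at 9.128 to 23.47 CPM. COL3A1 had no count, and COL1A2, DCN, LUM and POSTN had 0 to 13 counts per library. Endothelial markers summed to 0.336 to 2.045 CPM. Leukocyte markers summed to 17.4 to 26.8 CPM, with PTPRC, CD3E, LYZ and the plasmacytoid dendritic cell gene CLEC4C at 0 counts in every library. In RNA from whole cultures, a higher level in a few cells and a smaller one in all cells cannot be told apart.

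The promoters of 4 members are shown because the letters of the interferon-stimulated response element stand in them and because these members had the smallest p-values among those with a match. The sequences are from RefSeq on GRCh38.p14, written 5′ to 3′ on the strand of the gene, and run from 250 bases before the transcription start up to it, for IFITM1 with 4 further bases that complete a match. Capitals mark the matches to the core of the element, GAAA followed after any 2 bases by another GAAA, or TTTC, any 2 bases and TTTC on the other strand. The IFIT3 promoter lies at chr10:89327747-89327996 on the plus strand, that of IFI44 at chr1:78649539-78649788 on the plus strand, that of LGALS3BP at chr17:78979924-78980173 on the minus strand and that of IFITM1 at chr11:313790-314043 on the plus strand.
IFIT3: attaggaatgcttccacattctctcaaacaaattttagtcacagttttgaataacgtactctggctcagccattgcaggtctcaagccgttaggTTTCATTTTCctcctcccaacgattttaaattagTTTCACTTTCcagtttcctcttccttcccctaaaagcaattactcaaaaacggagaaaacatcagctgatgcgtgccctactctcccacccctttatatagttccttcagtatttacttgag
IFI44: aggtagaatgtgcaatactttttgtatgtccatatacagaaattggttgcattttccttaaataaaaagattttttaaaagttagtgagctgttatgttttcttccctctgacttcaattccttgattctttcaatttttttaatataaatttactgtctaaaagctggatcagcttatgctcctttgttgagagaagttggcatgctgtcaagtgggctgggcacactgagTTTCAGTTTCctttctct
LGALS3BP: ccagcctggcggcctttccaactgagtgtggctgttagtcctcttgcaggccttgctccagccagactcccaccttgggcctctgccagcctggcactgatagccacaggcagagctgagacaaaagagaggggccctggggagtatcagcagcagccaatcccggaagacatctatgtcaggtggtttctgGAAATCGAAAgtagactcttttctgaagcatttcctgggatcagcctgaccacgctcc
IFITM1: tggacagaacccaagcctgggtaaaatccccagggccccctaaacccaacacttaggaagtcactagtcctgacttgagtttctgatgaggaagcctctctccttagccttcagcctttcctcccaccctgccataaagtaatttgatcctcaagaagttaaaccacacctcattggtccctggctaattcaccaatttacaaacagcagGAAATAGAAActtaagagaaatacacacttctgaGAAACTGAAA

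RefSeq promoter sequences were found for 36 of the 46 members, as 48 promoters of 250 bases before to 50 after a start, since 10 members have more than 1 start. The core of the response element occurred in 28 of these 48 promoters, which is 58.3%, against 3.57% of the 35116 promoters in the table. Of the 49 matches, 46 lay within 200 bases before the start. By gene, 24 of the 36 members held it (66.7%), against 4.38% of genes. The gamma-activated site, searched as TTC, any 3 bases and GAA, which reads the same on both strands, occurred in 10 members (27.8%) against 9.38% of genes. A match describes the letters and not a bound site.

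In this cell line the interferon-stimulated genes stood high in 1 library, bile acid library 1. That library was the highest of the 6 for 39 of the 46 members, which is 84.8%, against 19.4% of all genes tested. It lay at least 2-fold above every other library for 27 members, or 58.7%, against 0.659% of all genes. Measured as the log2 CPM of a gene minus its mean over the 6 libraries, the members had a median of 1.36 in bile acid library 1, against -0.11 in bile acid library 2, -0.15 in bile acid library 3 and -0.23, -0.31 and -0.41 in controls 1 to 3. The medians over all genes lay between -0.06 and 0.03. Control 2 was the highest library for 6 members (13%, against 36.4% of all genes) and the lowest for 17 (37%, against 41.8%). Whole reads recovered from the authors' normalized counts, scaled here by library total, and the authors' FPKM come from the same libraries. In each, bile acid library 1 was the highest library for 39 members, against 17.2% and 17.7% of all genes tested. It lay at least 2-fold above every other library for 26 members in each, against 0.676% and 0.643%.

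**Figure D1:**
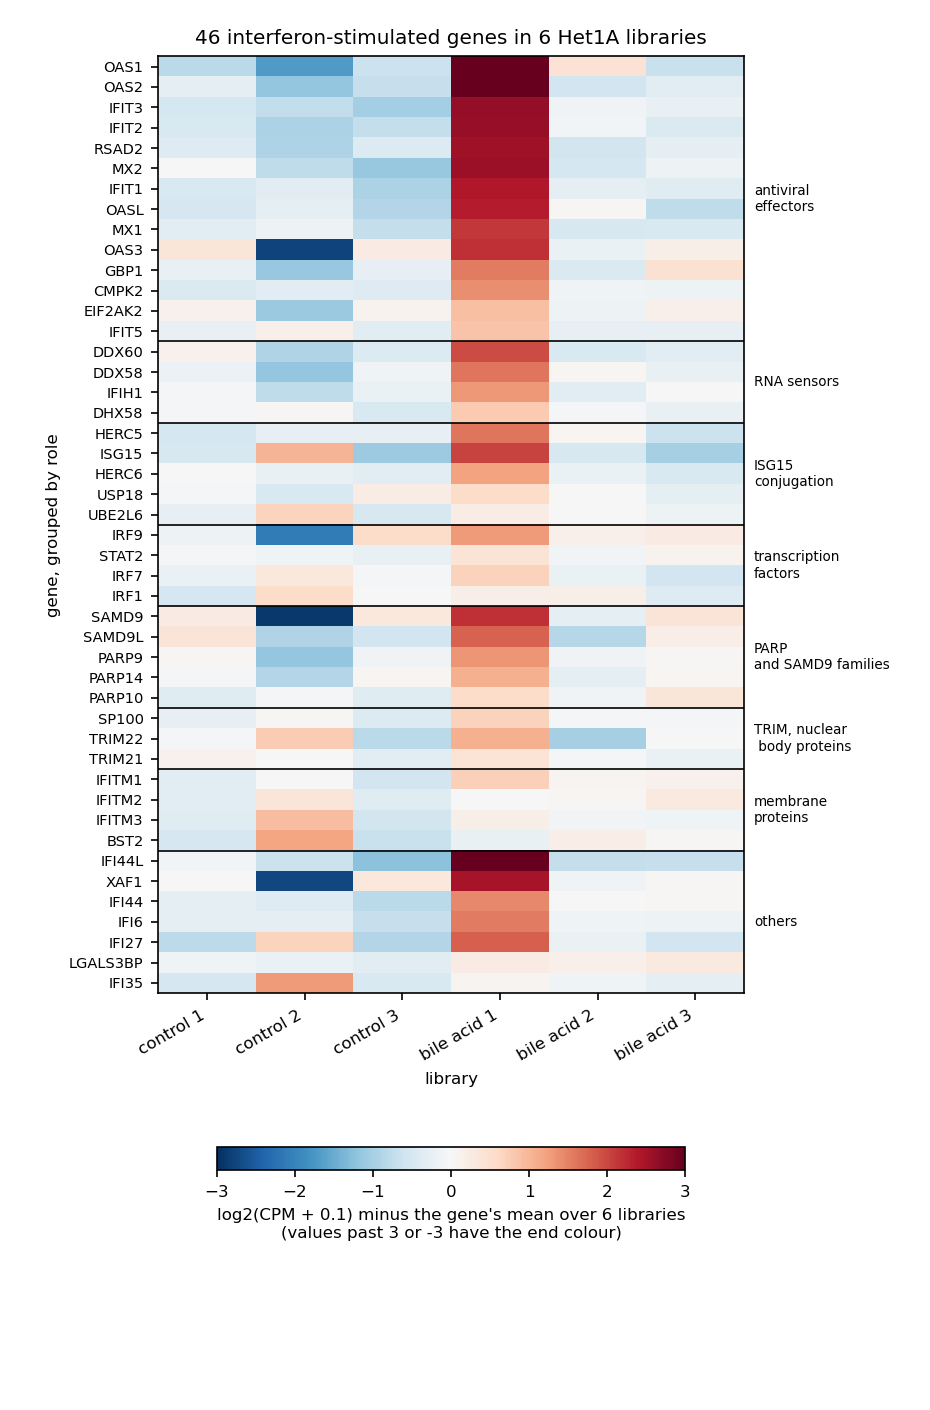
Each row is a member, grouped by role, and each column a library. Colour gives log2(CPM + 0.1) minus the gene's mean over the 6 libraries, from -3 (blue) to 3 (red), with values past either end in the end colour. The column of bile acid library 1 is red for most rows, and control library 2 is blue for OAS3, SAMD9 and XAF1 and red for BST2, IFI35 and ISG15.

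Compared as 3 bile acid against 3 control libraries, no member was called. The adjusted p-values of the quasi-likelihood test of edgeR, corrected over all 17743 genes, ran from 0.911 to 0.993 for the members, and edgeR called 0 genes in the whole table (0%). DESeq2 called 19 genes (0.107%), of which 0 were members, and limma-voom called 0. At an unadjusted edgeR p under 0.05, 10 members were higher (21.7%, against 1.93% of all genes) and 0 lower (against 1.39%). The fold change, written throughout as log2 of bile acid over control, was above 0 for 41 members (89.1%, against 48.8% of all genes) and above 1 for 20 (43.5%, against 2.29%). The median over the members was 0.90 and that over all genes -0.01. On the log2(FPKM + 1) scale the members' median was 0.49. Without bile acid library 1 the median over the members was 0.17 (all genes -0.02), 30 members had a fold change above 0 (65.2%, against 47.5%), OAS1 alone had one above 1 (2.17%, against 2.05%), and 0 members had an unadjusted p under 0.05 in either direction (against 0.774% of all genes higher and 0.485% lower). edgeR then called 0 genes (0%), and DESeq2 1 gene (0.00545%), no member. Without control 2 instead, all 46 members had a fold change above 0 (100%, against 50.8%), 21 were higher at an unadjusted p under 0.05 (45.7%, against 5.02%), the median was 0.80, and edgeR called 1 gene (0.00547%), no member.

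Of the 8 groups by role, the 14 antiviral effectors had the largest contrast between bile acid library 1 and the other bile acid libraries. All 14 were highest there, 12 of them at least 2-fold above every other library. Their median log2 fold change was 1.73, and 0.23 without that library. Measured as log2 CPM of bile acid library 1 minus the mean of bile acid libraries 2 and 3, their median was 2.72, against 0.00 over all genes.

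OAS1, which makes the 2-5A messenger that switches on RNase L when double-stranded RNA is present, stood at 1.44, 0.728 and 1.62 CPM in controls 1 to 3 and at 27.3, 3.55 and 1.60 CPM in bile acid libraries 1 to 3. Bile acid library 3 lay inside the control range, bile acid library 2 above it and bile acid library 1 far above both. The log2 fold change was 3.08 (SE 1.04; edgeR, adjusted p = 0.911) and 1.02 (SE 0.57) without bile acid library 1. OAS2, of the same cluster on chromosome 12 and with the same activity, measured 4.49, 2.35 and 3.32 CPM in the controls and 45.15, 3.58 and 4.28 CPM in the bile acid libraries. Its groups overlapped, and its log2 fold change, 2.37 (SE 0.98) with all libraries, was 0.21 without bile acid library 1. OAS3, the third of the cluster, measured 93.2, 10.5 and 86.2 CPM in the controls and 328, 62.3 and 81.5 CPM in the bile acid libraries. Here control 2 was low by a wide margin, and without both bile acid library 1 and control 2 the log2 fold change of 1.31 turned to -0.31. OASL, a relative that enhances RIG-I signalling, measured 8.66, 10.25 and 6.65 CPM against 63.4, 12.7 and 7.16 CPM, a log2 fold change of 1.70 (SE 0.76) that was 0.23 without bile acid library 1.

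The IFIT proteins, which bind foreign RNA ends and hold back translation, are encoded side by side on chromosome 10. IFIT3 measured 12.04, 10.4 and 8.61 CPM in the controls and 109, 16.2 and 14.98 CPM in the bile acid libraries. No control reached any of the bile acid libraries, and without bile acid library 1 the log2 fold change went from 2.18 (SE 0.77) to 0.59 (SE 0.25). The groups of IFIT2 did not overlap either, with 12.3, 8.74 and 10.3 CPM against 104, 16.1 and 12.5 CPM, and log2 fold changes of 2.07 (SE 0.79) and 0.45 (SE 0.27). IFIT1 measured 12.5, 13.6 and 8.905 CPM against 91.4, 14.3 and 13.3 CPM. Bile acid library 3 lay below control 2 there, and the log2 fold change of IFIT1, 1.76 (SE 0.75) with all libraries, was 0.24 without bile acid library 1. IFIT5 had the smallest contrast in the cluster, with a log2 fold change of 0.34 and 62.9 CPM in bile acid library 1 against 27.7 to 38.1 CPM elsewhere.

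MX1, a dynamin-like GTPase that traps viral nucleocapsids, measured 29.2, 32.9 and 22.2 CPM in the controls and 160, 26.0 and 26.6 CPM in the bile acid libraries. Bile acid libraries 2 and 3 lay inside the control range, and the log2 fold change of 1.33 (SE 0.70) was -0.09 (SE 0.25) without bile acid library 1. MX2, next to it on chromosome 21, had 31.5 CPM in bile acid library 1 and 2.30 to 5.21 CPM in the other libraries. RSAD2, which encodes viperin, and CMPK2, its neighbour that supplies the nucleotide viperin acts on, stood at 12.3 and 12.7 CPM in bile acid library 1 and at no more than 1.67 and 4.46 CPM elsewhere. CMPK2 was still higher in every bile acid library than in every control, by a narrow margin outside bile acid library 1 (4.46 and 4.28 CPM against 3.49 to 3.81 CPM). GBP1, a GTPase that coats intracellular pathogens, measured 8.30, 4.37 and 8.10 CPM against 28.6, 7.165 and 13.4 CPM, a log2 fold change of 1.24 (SE 0.51) and of 0.57 without bile acid library 1. EIF2AK2, the kinase PKR that stops translation on double-stranded RNA, had 282 CPM in bile acid library 1 and 69.6 to 167 CPM in the other libraries.

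**Figure D2:**
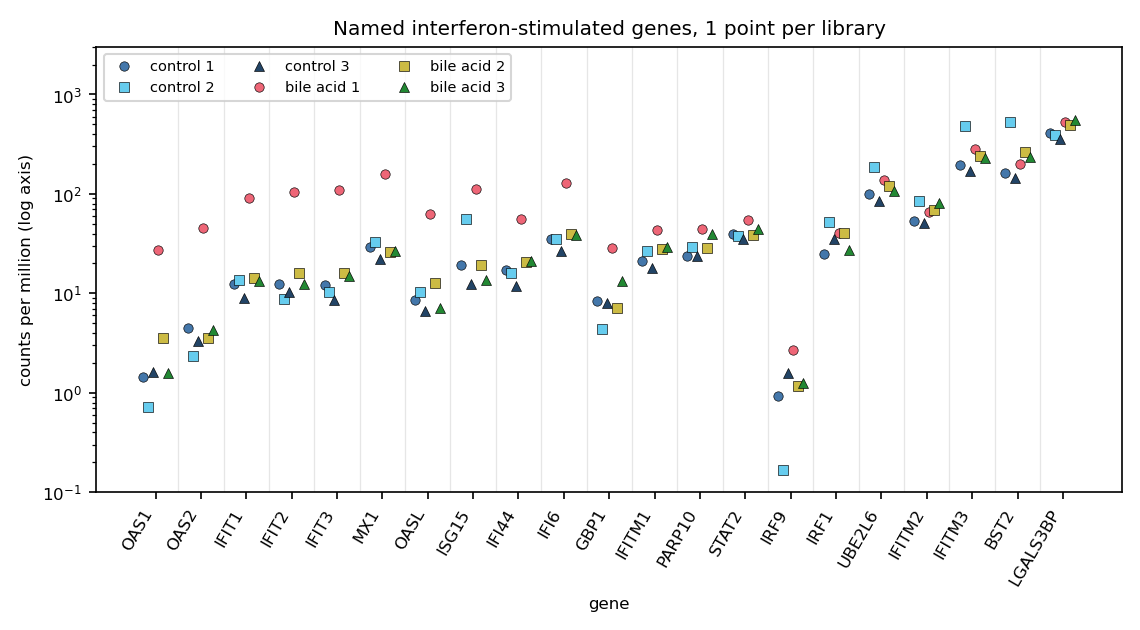
Points give the CPM of each library (log axis) for 21 named members, with the symbol and colour of each library in the key. Bile acid library 1 stands clear of the rest from OAS1 to IFI6, while for IFITM3 and BST2 the highest point is control 2.

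Of the RNA sensors, IFIH1 (MDA5) and DDX58 (RIG-I), which detect long and 5′-triphosphate RNA, and DDX60, a helicase linked to them, were each at least 2-fold higher in bile acid library 1 than in any other library. They reached 46.2, 24.9 and 58.7 CPM there, against at most 18.9, 8.48 and 16.5 CPM. DHX58 (LGP2), which tunes the other sensors, stood at 21.2 CPM there and at 8.905 to 12.7 CPM elsewhere. The median log2 fold change of the 4 sensors was 0.97, and 0.09 without bile acid library 1.

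ISG15, the ubiquitin-like modifier, measured 19.3, 55.4 and 12.6 CPM in the controls and 111, 19.2 and 13.6 CPM in the bile acid libraries. Control 2 lay above bile acid libraries 2 and 3, so the log2 fold change of 0.72 (SE 0.87) depended on which libraries were used. It was -0.82 without bile acid library 1, 1.60 without control 2 and 0.04 without both. HERC5, the ligase that attaches ISG15, and its relative HERC6 stood at 45.2 and 31.03 CPM in bile acid library 1, against at most 15.3 and 13.5 CPM elsewhere. UBE2L6, the conjugating enzyme of the same pathway, had no such peak, at 99.6, 188 and 85.4 CPM in the controls and 139, 119 and 107 CPM in the bile acid libraries. Its log2 fold change was -0.03 and turned to 0.05 when libraries were scaled by their total alone. USP18, which removes ISG15 and dampens the receptor, had a log2 fold change of 0.21 and a level of 16.02 to 32.4 CPM over the 6 libraries.

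The transcription factors that carry the interferon signal had a smaller contrast than the effectors, with a median of 0.74 for log2 CPM of bile acid library 1 minus the mean of the other bile acid libraries. STAT2 measured 39.4, 37.8 and 35.2 CPM in the controls and 54.6, 38.9 and 44.6 CPM in the bile acid libraries, with a log2 fold change of 0.30 (SE 0.19), which was 0.16 without bile acid library 1. IRF1, the activator of interferon gamma responses, was highest in control 2, with 25.0, 52.7 and 35.5 CPM against 40.05, 40.4 and 27.1 CPM, and its log2 fold change of -0.07 (SE 0.31) did not differ from 0 beyond its error. IRF7, which amplifies type I interferon, had 83.7 CPM in bile acid library 1 and 34.4 to 64.3 CPM elsewhere. IRF9, the DNA-binding partner of STAT2, had a low level, with 3 counts in control 2 and 26 to 75 in the other libraries, at 0.9345, 0.168 and 1.58 CPM against 2.675, 1.17 and 1.25 CPM. Its log2 fold change of 0.91 (SE 0.74) was -0.04 without bile acid library 1 and control 2. None of the 4 was at least 2-fold higher in bile acid library 1 than in every other library.

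In the PARP and SAMD9 families, PARP9 and PARP14 lie close together on chromosome 3 and act on interferon signalling. They reached 89.7 and 126 CPM in bile acid library 1, against at most 36.5 and 62.7 CPM in the other libraries. SAMD9 and SAMD9L, translation inhibitors encoded side by side on chromosome 7, reached 24.25 and 6.60 CPM there, against at most 6.88 and 2.48 CPM. SAMD9 had 0.616 CPM (11 counts) in control 2 against 6.18 and 6.56 CPM in the other controls. PARP10, a mono-ADP-ribosyltransferase, differed from these. It measured 23.9, 29.6 and 23.7 CPM in the controls and 44.8, 28.3 and 39.5 CPM in the bile acid libraries, a log2 fold change of 0.55 (SE 0.23), and 0.52 (SE 0.18) without bile acid library 1 and control 2. TRIM21, TRIM22 and SP100, ubiquitin ligases and a nuclear body protein, had log2 fold changes of 0.13, 0.17 and 0.45, and bile acid library 1 was their highest library.

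Of the other members, IFI44L had the widest contrast of the list. It had 25.7 CPM in bile acid library 1 and 0.98 to 2.30 CPM in the other libraries, with a log2 fold change of 2.57 over all libraries and -0.14 without it. IFI44, the adjacent gene, measured 17.3, 16.1 and 11.97 CPM in the controls and 56.6, 20.7 and 21.4 CPM in the bile acid libraries. Its groups did not overlap, and the log2 fold change was 1.12 (SE 0.42) and 0.48 (SE 0.25) without bile acid library 1. IFI6, a mitochondrial and endoplasmic reticulum protein that limits cell death, had 35.4, 35.45 and 26.8 CPM against 129, 39.7 and 39.0 CPM, and log2 fold changes of 1.09 (SE 0.48) and 0.28. IFI27 and XAF1, both linked to apoptosis, reached 291 and 18.3 CPM in bile acid library 1. Control 2 was the highest control for IFI27 (133 CPM) and the lowest for XAF1 (0.392 CPM).

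Several members lie next to each other in the genome, and their values in bile acid library 1 are given by cluster beside the median of 1.53 over all members. Measured as log2 CPM of that library minus the mean of the other bile acid libraries, the 3 OAS genes spanned 2.20 to 3.50 within 105 kb, MX1 and MX2 2.60 to 2.93 within 97.3 kb, SAMD9 and SAMD9L 2.11 to 2.14 within 48.9 kb, HERC5 and HERC6 1.53 to 1.91 within 127 kb, the 4 IFIT genes 1.11 to 2.87 within 137 kb, PARP9 and PARP14 1.18 to 1.36 within 203 kb, and IFI44 and IFI44L 1.42 to 4.08 within 44.2 kb. The IFITM genes, within 19.9 kb on chromosome 11, spanned -0.17 to 0.60. Whether neighbours differ from other members was not tested. A match to the core of the response element did not divide the list sharply by this measure. The 24 members with a match had a median of 1.62 (-0.34 to 4.08), and the 12 scanned members without one 1.31 (0.27 to 3.47). IFI44L was the highest of those with a match and OAS1 the highest of those without. The search allowed only a spacing of 2 bases, so a member without a match may still hold the element in another form.

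Of the 4 membrane proteins, BST2 and IFITM3 were the most abundant members per length, and bile acid library 1 was the highest library only for IFITM1. Over the 6 libraries BST2 had 229 CPM per kilobase, IFITM3 198, LGALS3BP, a secreted glycoprotein, 127, IFI6 58.8, UBE2L6 56.1, IFITM2 43.9 and ISG15 41.0. BST2, or tetherin, which holds budding virions at the membrane, measured 163, 530 and 145.5 CPM in the controls and 198, 264 and 238 CPM in the bile acid libraries. Control 2 was the highest library and the other controls were the lowest. The log2 fold change was -0.26 (SE 0.49) with all libraries, 0.61 (SE 0.16; edgeR, adjusted p = 0.342) without control 2 and 0.71 (SE 0.14; edgeR, adjusted p = 0.107) without bile acid library 1 as well, the lowest adjusted p that any member reached under any setting tried. IFITM3, which blocks fusion of viruses in endosomes, likewise had control 2 as the highest library and the other controls as the lowest, with 197, 477 and 171 CPM against 286, 239 and 231 CPM. Its log2 fold change of -0.16 (SE 0.39) was 0.46 without control 2 and 0.36 without both libraries. IFITM2 measured 53.6, 84.95 and 51.3 CPM against 66.55, 68.5 and 81.4 CPM, a log2 fold change of 0.19 (SE 0.24) and of 0.52 without both.

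The members' deviation in control 2 varied with the length of the gene. Of the 11 members with under 2500 bp of exon, 10 were higher in control 2 than the mean of controls 1 and 3 in log2 CPM, with a median of 0.69, and the median over all genes of that length was 0.56. Of the 13 members over 6500 bp, 4 were higher, with a median of -0.83, against -0.55 over all genes of that length. Over the 46 members, Pearson's r between log2 length and this deviation was -0.489 and Spearman's rho -0.544. Over all genes tested r was -0.2 and rho -0.33. For bile acid library 1 minus the mean of bile acid libraries 2 and 3, r was 0.353 over the members and 0.212 over all genes. These values are a description, since all points share the same libraries. Whether length has a part in the membrane genes' result was not tested beyond the removal of the length trend, which turned the log2 fold change of BST2 to 0.10 and that of IFITM3 to 0.16.

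**Figure D3:**
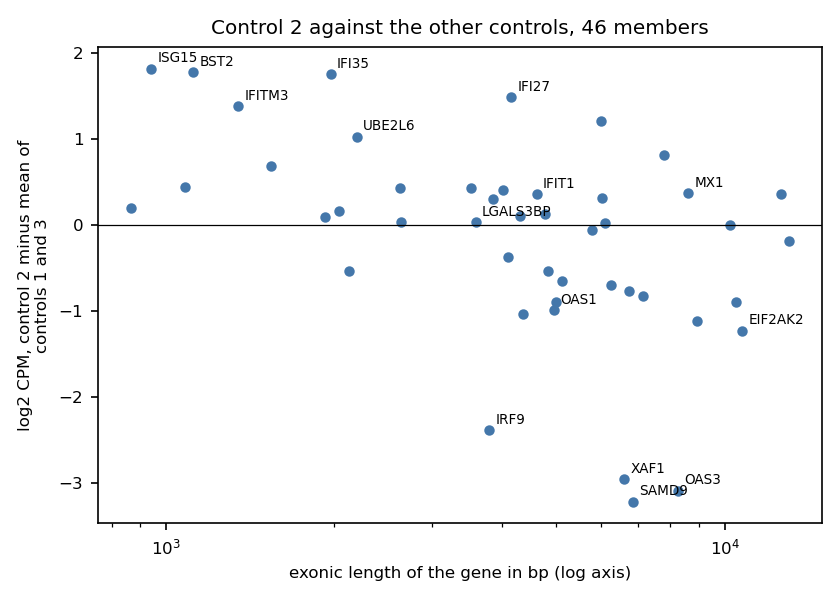
Each of the 46 points is a member, with its exonic length in bp on the x axis (log axis) and log2 CPM of control 2 minus the mean of controls 1 and 3 on the y axis. Short genes such as ISG15, BST2 and IFITM3 lie above 0, and OAS3, SAMD9 and XAF1 lie near -3.

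A smaller group of members was higher in all bile acid libraries. All 3 bile acid libraries exceeded all 3 controls for 7 members, CMPK2, IFI44, IFI6, IFIT2, IFIT3, IFITM1 and LGALS3BP, which is 15.2% against 5.29% of all genes, and the reverse order held for 0, against 4.89%. The 7 were the same genes without bile acid library 1, when 8% of all genes met that condition, and IRF7 alone was then wholly lower (2.17%, against 7.15% of all genes). LGALS3BP, the galectin-binding protein, differed by the same amount with and without bile acid library 1, with 408, 388 and 354 CPM in the controls and 534, 496 and 553 CPM in the bile acid libraries. It was the only member for which bile acid library 3 was the highest. Its mean was 528 ± 28.9 CPM against 383 ± 27.3 CPM (SD, n = 3 each), and its log2 fold change of 0.46 (SE 0.18; edgeR, adjusted p = 0.911) stayed between 0.41 and 0.52 when each library was left out in turn. IFITM1, the plasma membrane member of its family, measured 21.3, 26.4 and 17.8 CPM against 43.6, 28.04 and 29.4 CPM, a log2 fold change of 0.62 (SE 0.25), and of 0.40 (SE 0.25) without bile acid library 1.

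Without control 2 and bile acid library 1, 9 members were higher at an unadjusted edgeR p under 0.05 (19.6%, against 5.42% of all genes), namely BST2, IFI27, IFI44, IFIT3, IFITM1, IFITM2, IFITM3, LGALS3BP and PARP10, with no member among the 14 genes (0.0778%) that edgeR called after adjustment. In that comparison 16 members lay wholly above the controls (34.8%, against 20% of all genes) and 2, IRF7 and OAS3, wholly below (4.35%, against 20.9%). The median log2 fold change of the list was then 0.12, and 31 members were above 0 (67.4%, against 49.5%).

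**Figure D4:**
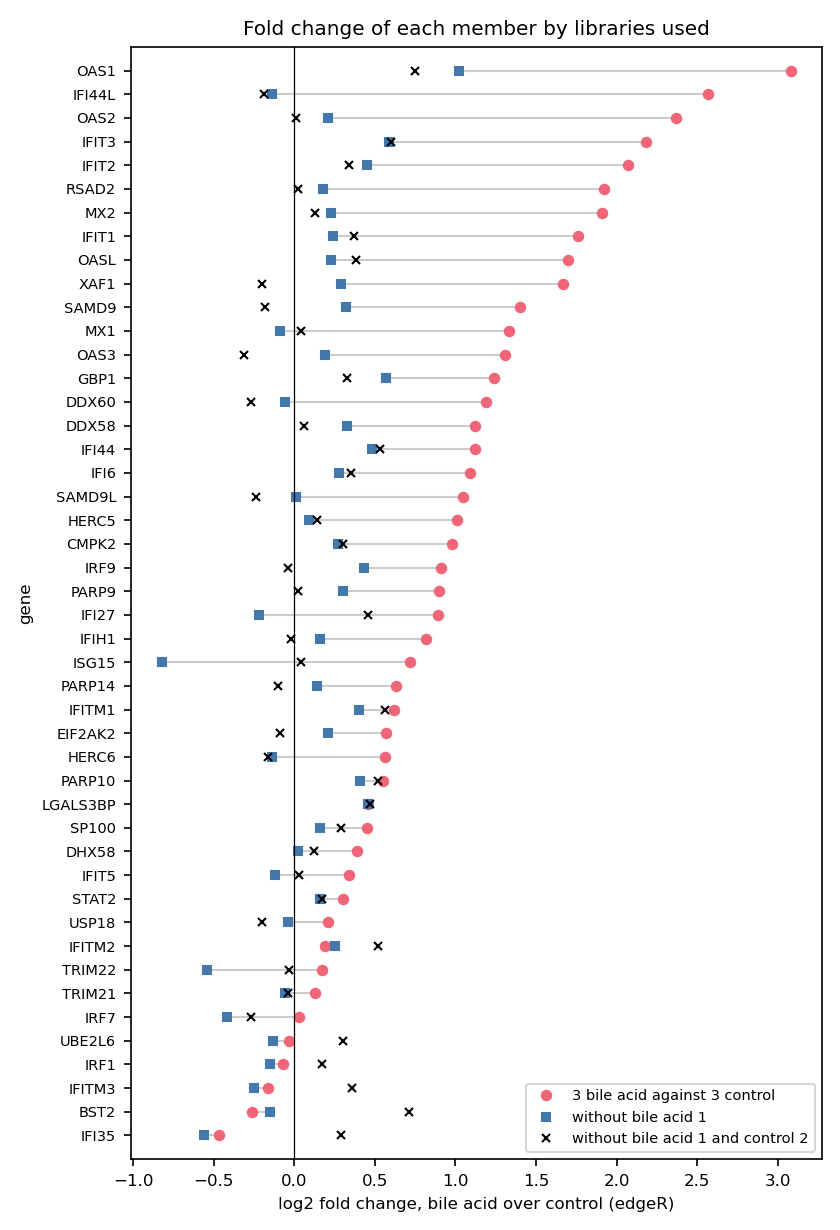
For each member the log2 fold change of edgeR is drawn with all libraries (circles), without bile acid library 1 (squares) and without bile acid library 1 and control 2 (crosses). The grey lines show how far each value moved. OAS1 goes from 3.08 to 1.02 and 0.75, LGALS3BP stays at 0.46 to 0.47, and BST2 goes from -0.26 to 0.71.

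Interferon genes themselves were close to absent. Of 8 ligands looked for, 0 passed the filter. IFNB1, IFNK, IFNG, IFNL2 and IFNL3 had 0 counts in every library, which allows up to the floor given above. IFNL1, an interferon lambda of epithelia, had 6 counts in bile acid library 1, 3 in bile acid library 3 and 0 in the others, and IFNA1 had 3 counts in bile acid library 1 alone. IFNE had 0 to 4 counts. The 6 receptor genes were all detected, with log2 fold changes from -0.40 to 0.39 and a median of 0.05. IFNAR1 measured 89.9, 85.5 and 101 CPM in the controls and 104, 93.4 and 106 CPM in the bile acid libraries, a log2 fold change of 0.13. IFNGR2, the second chain of the interferon gamma receptor, was higher in every bile acid library (52.4, 49.9 and 52.05 CPM against 37.6, 46.8 and 33.45 CPM), with a log2 fold change of 0.39 (SE 0.19).

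JAK1, a kinase bound to the interferon receptors, had 159, 72.85 and 185 CPM against 168, 137 and 141.5 CPM, a log2 fold change of 0.10. Of the 70 pathway genes listed, 55 were tested and 41 of these had a fold change above 0 (against 48.8% of all genes). None was called, 3 of 55 were at least 2-fold higher in bile acid library 1 than in any other library (against 0.659% of all genes), and the median log2 fold change was 0.25. The 26 other interferon-responsive genes in that list had a median of 0.44, and GBP3, a relative of GBP1, was the one with the smallest p, at 11.2, 8.18 and 11.8 CPM against 23.9, 13.05 and 21.8 CPM (log2 fold change 0.91, SE 0.29). Of the 8 tested genes that restrain the pathway, SAMHD1, a dNTP hydrolase, had the smallest p, with a log2 fold change of 0.49. That list had a median of 0.32, from -0.45 to 0.49, and 1 gene was below 0. Of the 10 tested sensors and adaptors, the smallest p was that of TBK1, the kinase downstream of the RNA sensors (log2 fold change 0.39). Their median was 0.06, from -0.48 to 0.39, and 4 were below 0. The restraint and sensor lists had medians of 0.03 and 0.06 for log2 CPM of bile acid library 1 minus the other bile acid libraries' mean. The chemokine CCL5, not tested because of its low level, had 113 counts in bile acid library 1 and 0 to 16 in the others. The other chemokines of that list were close to absent. CXCL9 had 0 counts in every library, and CXCL10 had 1 count, in bile acid library 1. CXCL11 had 7 counts in that library and 0 to 3 in the others.

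**Figure D5:**
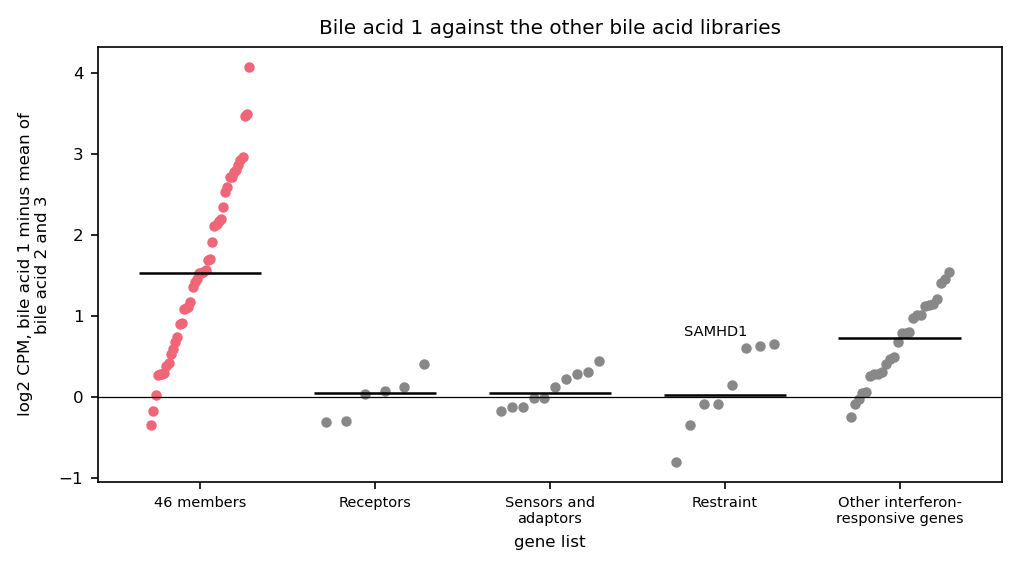
Points give log2 CPM of bile acid library 1 minus the mean of bile acid libraries 2 and 3 for the 46 members and for the tested genes of 4 pathway lists, and black bars the medians. The median is 1.53 for the members, 0.05 for the receptors and 0.73 for the other interferon-responsive genes.

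Other genes shared the peak in bile acid library 1. Of all genes tested, 117 lay at least 2-fold above every other library there, and the 27 members make up 23.1% of them. Ranked by the ratio of bile acid library 1 to the next highest library among the genes with at least 5 CPM in it, the top 20 held 10 members. Others in the top 20 included the immediate-early genes EGR2 (143 CPM against at most 4.80 CPM), FOSB (24.3 against 2.225 CPM) and NR4A1 (133 against 16.6 CPM) and the MAPK phosphatase DUSP5 (243 against 27.15 CPM). Leukocyte markers summed to 18.4 CPM in bile acid library 1 against 17.4 to 26.8 CPM in the other libraries. Most of that sum in bile acid library 1 was CD14 (12.3 CPM) and IL3RA (5.03 CPM), so it describes mainly these genes. The part of this library in the members' result is given by the values without it, and a cause of its difference was not tested.

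In the authors' deposited table, 44 of the 46 members had an adjusted p, and 0 were under 0.05, against 19 of all 14713 genes (0.129%). The lowest adjusted p of a member in the authors' deposited table was that of OAS1, at 0.0973, with a log2 fold change of 3.09 (SE 0.82). OAS2 and IFI44L, at 2.39 and 2.51 in the authors' deposited table, had no p there. In DESeq2 run here on the deposited counts the same 2 genes had none, since their largest Cook's distance, a measure of how far 1 library drives a gene's fit, was 21.6 and 24.7 against a limit of 18, in bile acid library 1. The largest distance fell on bile acid library 1 for 36 of the 46 members and for 10.2% of all genes. Of the 2196 terms in the authors' deposited gene set table, 24 name interferon, all with a positive score. The share of positive scores over all terms was not counted, and the scores were not recomputed without bile acid library 1. The normalized enrichment scores of these 24 ran from 1.52 (adjusted p of 0.045) to 2.16 in the authors' deposited table, and 5 of them had 0 members at their core. Some of the 24 have equal values, such as type II interferon production and its regulation, each with 96 genes and a score of 1.83 in the authors' deposited table. The highest-scoring term, the response to type I interferon, with 70 genes, had a normalized enrichment score of 2.16 and an adjusted p of 1.45e-05 in the authors' deposited table, and 10 of the 27 genes at its core were members. No source used here says how the genes were ranked for it.

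Some members share sequence with other genes, and the reads given to them are uncertain. More than 20% of the 31-base words of IFITM1 (35.3%), IFITM2 (45.2%), IFITM3 (56%), IRF1 (28.5%), IRF9 (50.3%), USP18 (30.8%) and XAF1 (36.6%) occur in transcripts of other genes. Other genes overlap 38.3% of the exons of XAF1, with an antisense gene having the largest overlap. They overlap 48.4% of those of IRF9, with a neighbour on the same strand having the largest. IFITM1 and IFITM2, on the same strand, overlap each other, and 32.5% and 22.7% of their exons are shared with other genes. That share is 21.3% for IFITM3 and 22% for IRF1. No source used here states whether the counting used strand.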

How the data were processed

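The 46 members and all other gene lists were chosen with earlier results of these data known. The authors deposited whole-number read counts per gene for 6 libraries, and the submitters' processing notes name HISAT2 2.0.5, featureCounts, DESeq2 and GRCh38 without their roles. No source used here names the annotation. The coordinates and lengths of all 46 members equal those of GENCODE 29. The authors also deposited FPKM, whose denominator is 1.18 to 1.22 times the count total in 5 libraries and 0.999 times in control 2, so levels here are CPM. The authors' deposited normalized counts, a signal made by dividing reads by 1 size factor per library, gave whole reads for 100% of values within 0.001 over 31530 genes, and edgeR on these reads called 0 genes. The authors' deposited comparison gives log2 fold changes with p-values, and their deposited gene set table gives a score, p-values and other values such as term size, per the file headers.

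The deposited counts were tested in R 4.3.3 with edgeR 4.0.16 by quasi-likelihood, after filterByExpr and TMM scaling, with Benjamini-Hochberg adjustment over all genes tested, called at an adjusted p under 0.05. A standard error is the log2 fold change over the square root of F. Single-library differences use log2 CPM with a prior count of 2. DESeq2 1.42.0, limma 3.58.1 (voom), other scalings and filters, a replicate block, length trends removed by lowess (span 0.3), FPKM and left-out libraries were alternatives, of which DESeq2 without bile acid library 1 was chosen after seeing the data. The scripts were tested on simulated data. Members named with every library's value are the 12 with the smallest unadjusted p, the 6 with the highest mean FPKM and 8 fixed ones, and pathway genes the 1 with the smallest p per list plus JAK1 and IFNAR1. Values of a further pathway gene are not reported here. EGR2, FOSB, NR4A1, DUSP5, CCL5, the other chemokines and the further members with values were chosen after their values were seen. The labels do not call same-numbered libraries pairs, and not every library was closest to its own number, so the main fit took no pairs.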

Additional observations from a re-analysis of the deposited data

How the results depend on the processing

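Over 22 settings, 21 planned and 1 added after seeing the data, no member or named pathway gene was called, and 560 of 592 gene values kept their direction. Of 21 named members 14 kept it in every setting. The number of genes called in the whole table was 19 with DESeq2, 14 without control 2 and bile acid library 1, 1 with DESeq2 without bile acid library 1, and 0 to 1 when each library was left out. The median log2 fold change of the members was 0.17 to 1.15 when each library was left out, 0.12 without control 2 and bile acid library 1 and 0.17 with DESeq2 without bile acid library 1. It was 0.49 on log2(FPKM + 1) with a minimum mean of 0.5, 0.47 on that scale unfiltered, 0.64 on log2(FPKM + 0.1), 0.67 with limma-voom, 0.68 with the replicate block and 0.65 with the block and the length trend removed, and lay between 0.86 and 0.93 under the other tools, scalings, filters and counting. Members wholly higher numbered 16 without both libraries (34.8%, against 20% of all genes). They numbered 7 without bile acid library 1 (15.2%, against 8%) and 16 without control 2 (34.8%, against 12.1%). Members wholly lower numbered 2 without both (4.35%, against 20.9%) and 1 without bile acid library 1 (2.17%, against 7.15%). Over every library left out in turn, 7 to 16 were wholly higher and 0 to 1 wholly lower. The share over all genes was not counted for the other libraries, so those counts are not compared. Fewer libraries make that condition easier to meet. The cause was not tested. Whether same-numbered libraries were pairs is not settled here. Their deviations from the group means correlated at 0.307, 0.382 and 0.0979, and those of other pairs at -0.413 to 0.189. For bile acid library 3, control 1 (0.144) was closer than control 3 (0.0979). A fit with the replicate block also called 0 members. Directions that turned were those of BST2 (-0.26), IFITM3 (-0.16), UBE2L6 (-0.03) and IRF1 (-0.07), and of ISG15, MX1, IRF9 and JAK1. With the replicate block BST2 had 0.00, IFITM3 0.00 and UBE2L6 0.05, with the length trend removed 0.10, 0.16 and 0.19, with both 0.21, 0.19 and 0.20, and without control 2 and bile acid library 1 0.71, 0.36 and 0.30. UBE2L6 also had 0.05 with limma-voom, 0.05 scaled by library total, 0.02 without a filter, 0.02 with limma on log2(FPKM + 1), filtered or not, and 0.03 with a pseudocount of 0.1. Without control 2 and bile acid library 1 IRF1 had 0.17, IRF9 -0.04 and JAK1 -0.30, and with DESeq2 without bile acid library 1 ISG15 had -0.82 and MX1 -0.09. When each library was left out the values ran from -0.56 to 0.61 for BST2, -0.41 to 0.46 for IFITM3, -0.23 to 0.41 for UBE2L6, -0.82 to 1.60 for ISG15, -0.09 to 1.74 for MX1, -0.29 to 0.26 for IRF1 and -0.20 to 0.37 for JAK1. Depth limits the interferon ligands, at 0 to 6 counts.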
